A study of Mus musculus with 12 samples.

Results

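The 42 genes described here are cyclins, cyclin-dependent kinases (CDKs), CDK inhibitors, DNA replication genes and mitosis genes, chosen by name, out of 55487 gene identifiers counted in neonatal mouse lens. RNA was sequenced at an age of 7 days in 12 libraries, 3 of each of 4 genotypes, all on the C57BL6/J background. *Trpm3* encodes a calcium-permeable TRP cation channel of the lens epithelium. Wild-type lenses were compared with 3 mutants. *Trpm3*-I/M lenses carry 1 copy, and *Trpm3*-M/M lenses 2 copies, of a missense allele (p.I65M) knocked in by gene editing that causes cataract, and *Trpm3*-KO lenses carry an allele made by homologous recombination with an IRES-*LacZ-neo* cassette. In the KO, transcripts interrupted by the cassette persist, so not all *Trpm3* RNA is removed. By immunofluorescence of mature lenses, the authors found TRPM3 protein in the wild-type epithelium and none in the KO epithelium. Each library pooled 8 lenses, by description 4 from males and 4 from females, and nothing says whether pools shared litters.

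Depth ran from 56162182 to 82090262 reads counted on genes per library. *Trpm3* itself stood at 268.5 ± 17.3 CPM (reads scaled to library size with TMM factors, mean ± SD, n = 3) in wild-type lenses and 95.3 ± 5.02 in KO lenses, with 386.6 ± 23.4 in I/M and 475.2 ± 8.02 in M/M lenses. One library went against its description. *Trpm3*-I/M replicate 3 held 0.0721 CPM of *Xist*, the RNA of the inactive X chromosome, against 45.8 to 304.9 CPM in the other libraries, so female lenses were not evident in it. Member counts for I/M at the filter of 5 CPM, and that of the p53 list, are therefore given with and without that library. Sex-linked genes differed among other libraries too. Wild-type replicate 2 held 45.8 CPM of *Xist* and 50.6 CPM summed over 4 Y-linked genes. Wild-type replicates 1 and 3 held 210.3 and 162.3 CPM of *Xist*, and 31.9 and 32.8 CPM of the Y-linked genes. Markers of other tissue also moved with genotype. The summed level of 8 vascular endothelium markers was 13.7 to 16.1 CPM in wild-type, 13.7 to 14.9 in KO, 23.6 to 29.2 in I/M and 48.8 to 56.7 in M/M lenses. That of 10 pericyte and fibroblast markers was 77.3 to 93.8, 69.5 to 75.0, 100.7 to 127.0 and 273.9 to 414.0 CPM, and that of 8 macrophage markers was at most 0.393 CPM in wild-type and 8.08 to 16.3 in M/M lenses. In a fit at CPM of at least 1, most tested markers of these cells were higher in M/M lenses, where 30% of all tested genes were. That held for 6 of 7 endothelial, 8 of 8 pericyte and fibroblast, and 4 of 4 macrophage markers tested. Summed macrophage markers were at most 0.318 CPM in KO and 0.924 in I/M lenses. Those 4 thus reached the limit only through the M/M libraries and had to be higher there. *Lum* and *Ptprc* had no reads in any wild-type library. By contrast, 11 lens fiber markers summed to 33570 to 35890 CPM in wild-type and 17940 to 20580 in M/M lenses. Such cells can also divide, and their part in the results below was not tested.

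A cell enters the division cycle when D-type cyclins, with *Cdk4* or *Cdk6*, phosphorylate the retinoblastoma protein and free E2F transcription factors, which switch on replication genes. Later, a complex built on MuvB with B-Myb and FoxM1 switches on mitosis genes. The inhibitors p21 (*Cdkn1a*) and p27 (*Cdkn1b*) restrain the kinases. In the lens, division is confined to the anterior epithelium, most of all near the equator, and cells leave the cycle as they turn into fibers.

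At the filter used by the authors (CPM of at least 5 in at least 3 libraries, here as CPM before TMM scaling), 22 of the 42 members were among the 8984 genes tested with edgeR's quasi-likelihood test, adjusted over all tested genes. In *Trpm3*-M/M against wild-type lenses, 15 of the 22 were higher at FDR ≤ 0.05, where 31.4% of all tested genes were higher, and 3 were lower, where 31.4% of all tested genes were lower. The median log2 fold change was 0.41 over these members and 0.00 over all tested genes. Only *Cdkn1a* also passed a fold change of 2 (8.95% of all tested genes did). Of the 22, *Cdkn1a*, *Rrm2*, *Ccna2* and *Kif11* reached the filter only through the M/M libraries and so had to be higher there before TMM scaling, which leaves 18 members for which the filter did not favor M/M.

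At a lower limit, CPM of at least 1 in 3 libraries, 41 members were tested among 12639 genes, all but *Cdc6*. All 41 reached it without the M/M libraries, though *Cdkn1a* did so only through the I/M libraries. In this wider fit, 28 of the 41 were higher in M/M lenses (30% of all tested genes) and 3 were lower (30.6%), namely *Ccnd1*, *Cdkn1b* and *Mcm7*. Their median log2 fold change was 0.40, against -0.01 over all genes. In the CPM values, 32 of the 42 members were higher in every M/M library than in any wild-type library, and 4 were lower in every one; of genes in this fit, 33.6% and 29.8% did so. Members under the higher filter are reported from the wider fit, and this is said each time. In bulk tissue, more dividing cells and more RNA per dividing cell cannot be told apart.

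**Figure D1:**
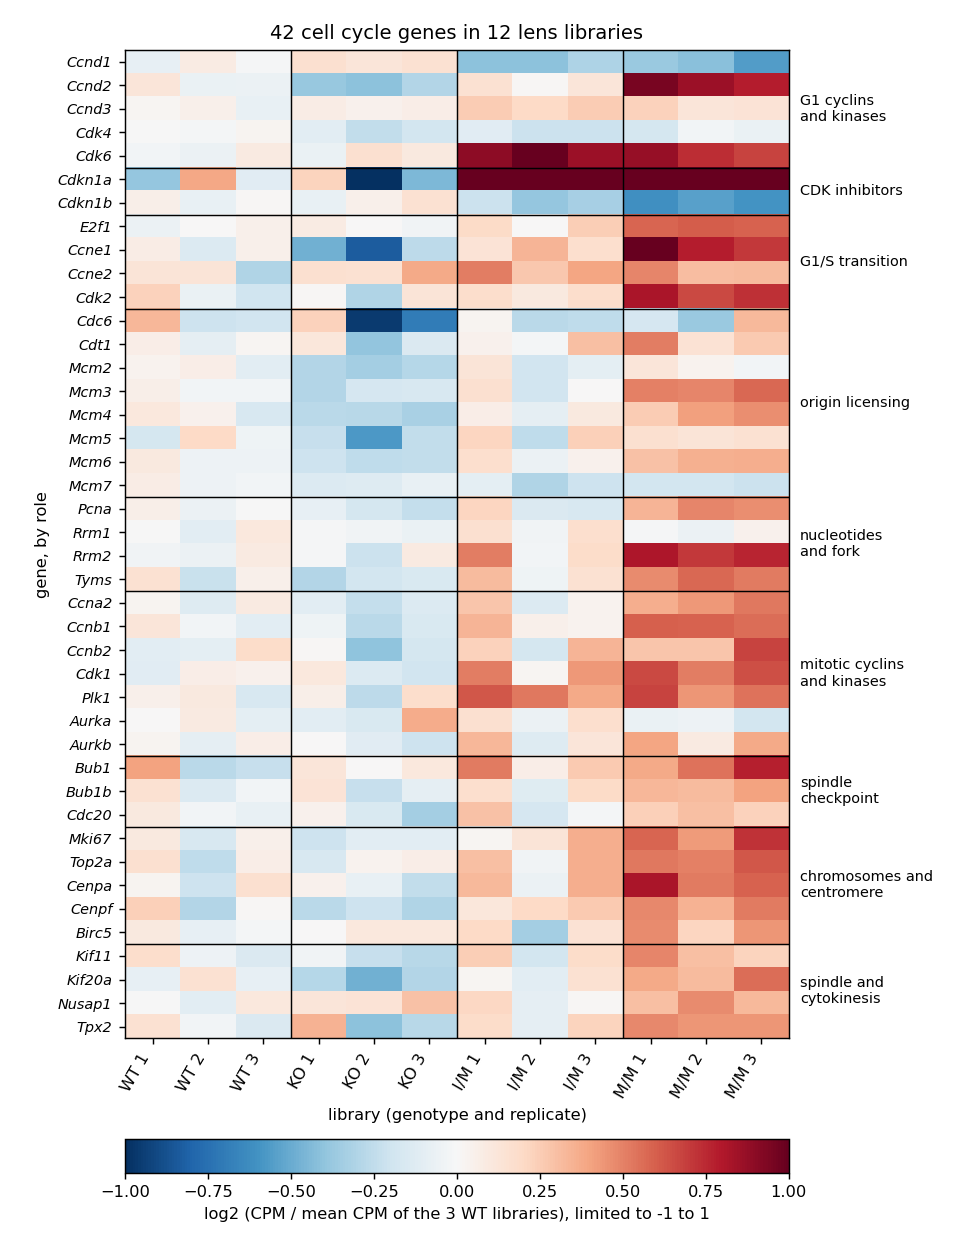
Heat map of the 42 members (rows, by role) in the 12 libraries (columns), as log2 of CPM over the mean of the 3 wild-type libraries, with colors limited to -1 and 1. Most replication and mitosis rows are red across the 3 M/M columns and pale or blue in the KO columns, while *Ccnd1*, *Cdkn1b* and *Mcm7* are blue in M/M.

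The D-type cyclins did not move together. *Ccnd2* (chr6:127125162-127152193, GRCm38) stood at 235, 207 and 209 CPM in wild-type, 166, 163 and 176 in KO, 241, 218 and 236 in I/M, and 419.4, 392.1 and 374 in M/M libraries. All 3 M/M libraries lay above every other library, the KO libraries lay below every wild-type one, and the I/M libraries overlapped with wild-type. The log2 fold change was 0.87 ± 0.06 (SE) in M/M (adjusted p = 6.41e-08) and -0.36 ± 0.06 in KO (adjusted p = 0.00384), against 0.10 ± 0.06 in I/M (adjusted p = 0.265). M/M also exceeded I/M directly, by 0.77 ± 0.06 (adjusted p = 5.26e-07).

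*Ccnd1* (chr7:144929931-144939925) went the other way. Its levels were 73.3, 82.2 and 77.0 CPM in wild-type, 86.4, 84.3 and 86.3 in KO, 58.3, 58.4 and 62.5 in I/M, and 59.8, 58.0 and 52.7 in M/M libraries. Both mutant groups lay below all wild-type libraries, and KO lay above them. The log2 fold change was -0.45 ± 0.06 in M/M (adjusted p = 1.31e-05) and -0.38 ± 0.06 in I/M (adjusted p = 0.000215), although scaling by library size alone turned the M/M value to 0.06. The KO difference of 0.14 ± 0.06 did not pass (adjusted p = 0.191), nor did M/M against I/M (-0.07 ± 0.06, adjusted p = 0.314). *Ccnd3* was higher by 0.16 ± 0.05 in M/M (adjusted p = 0.0075) and by 0.23 ± 0.05 in I/M (adjusted p = 0.00177).

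The ratio of *Ccnd2* to *Ccnd1* reads does not depend on how libraries are scaled. It was 2.81 ± 0.358 in wild-type, 1.97 ± 0.0654 in KO, 3.89 ± 0.214 in I/M and 6.96 ± 0.174 in M/M lenses (mean ± SD, n = 3). The 4 genotypes did not overlap in this ratio. For each of the 4 comparisons the exact two-sided permutation test gave p = 0.1 (adjusted over the 4, 0.1), which is the smallest value that 3 against 3 libraries allow. Per kilobase of exon, *Ccnd2* was the most abundant of the 42 members in wild-type lenses, with 23.0 CPM per kb, followed by *Ccnd1* (16.5), *Cdk4* (12.9) and *Ccnd3* (8.80), and in M/M lenses it reached 42 CPM per kb against 12.1 for *Ccnd1*.

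Of the kinases that pair with D-type cyclins, *Cdk6* rose in both mutants. *Cdk6* levels were 11.5, 11.2 and 12.5 CPM in wild-type, 11.2, 13.1 and 12.6 in KO, 21.9, 25.5 and 21.2 in I/M, and 21.4, 19.6 and 18.7 in M/M libraries. Every mutant library held more than any wild-type or KO library. The log2 fold change was 0.96 ± 0.08 in I/M (adjusted p = 1.53e-06) and 0.76 ± 0.08 in M/M (adjusted p = 3.29e-06). M/M was lower than I/M by a narrow margin (-0.20 ± 0.08, adjusted p = 0.0447), a call that was lost in 6 of 12 fits with 1 library left out and whose direction turned with library size alone (0.11). *Cdk4* differed less, at -0.18 ± 0.05 in I/M (adjusted p = 0.0188; 0.02 with library size alone) and -0.09 ± 0.05 in M/M (adjusted p = 0.16). The *Cdk4* call in I/M was lost without I/M replicate 2 or without I/M replicate 3.

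**Figure D2:**
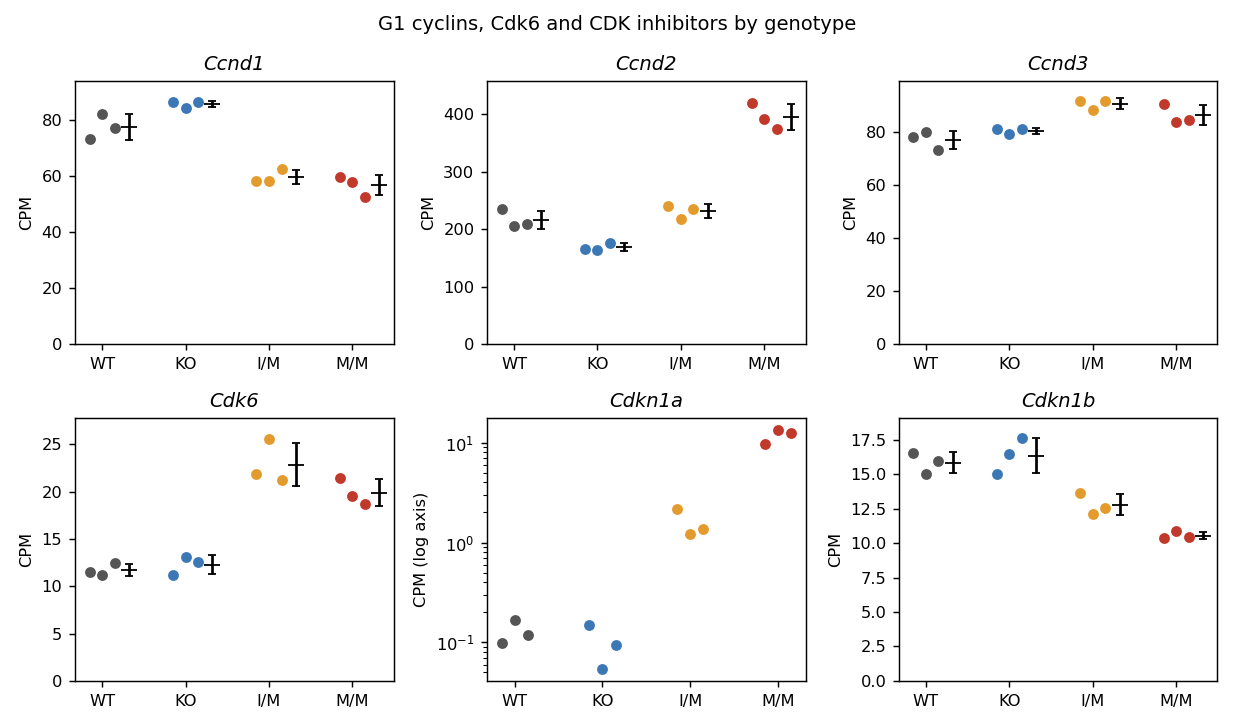
CPM of *Ccnd1*, *Ccnd2*, *Ccnd3*, *Cdk6*, *Cdkn1a* and *Cdkn1b* by genotype, with 1 point per library and, except for *Cdkn1a*, a bar for the mean ± SD (n = 3). *Cdkn1a* is on a log axis and runs from under 0.2 CPM in wild-type to between 9.62 and 13.5 in M/M libraries; *Ccnd2* is highest in M/M and *Cdk6* is high in both I/M and M/M.

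The largest change among the members was that of an inhibitor. *Cdkn1a* (chr17:29090976-29100727), which encodes p21 and is a classic p53 target, had 5, 8 and 6 reads in the wild-type libraries and 8, 3 and 5 in the KO libraries. It had 162, 101 and 94 reads in I/M and 769, 1242 and 1102 in M/M libraries. In CPM these are 0.128 ± 0.0359, 0.0992 ± 0.0479, 1.59 ± 0.520 and 11.8 ± 2.00. The groups form 3 separate steps, with wild-type and KO together at the lowest. M/M exceeded wild-type 91.5-fold (log2 fold change 6.52 ± 0.30, adjusted p = 7.91e-10), I/M exceeded wild-type 12.3-fold (3.62 ± 0.37, adjusted p = 7.16e-06), and M/M exceeded I/M 7.47-fold (2.90 ± 0.19, adjusted p = 7.76e-08). The gene passed the higher filter only with all 3 M/M libraries. Its I/M value in the wider fit was 3.61 ± 0.36 (adjusted p = 4.96e-06). That fit does not free it from the filter, since only I/M and M/M libraries reached its limit. Wild-type libraries held at most 0.168 CPM and KO libraries at most 0.150, so the gene had to be higher in a mutant to be tested.

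*Cdkn1b* fell in both mutants. Wild-type libraries held 16.5, 15 and 16.0 CPM, KO libraries 15, 16.4 and 17.6, I/M libraries 13.6, 12.1 and 12.6, and M/M libraries 10.3, 10.8 and 10.4. The order wild-type, I/M, M/M held without overlap, and KO overlapped with wild-type. The log2 fold change was -0.59 ± 0.07 in M/M (adjusted p = 4.39e-06), -0.31 ± 0.07 in I/M (adjusted p = 0.00288) and -0.28 ± 0.07 between M/M and I/M (adjusted p = 0.0031). With library size alone these became -0.08, -0.11 and 0.03, and none passed.

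Other CDK inhibitors were counted as a list of 5, of which 3 were tested, with 2 higher and 1 lower in M/M (31.4% of all tested genes in each direction). *Cdkn1c*, encoding p57, the inhibitor best known from lens fiber differentiation, stood at 549.8 ± 12.9 CPM in wild-type lenses. It was higher by 0.50 ± 0.05 in I/M (adjusted p = 3.16e-06) and by 0.43 ± 0.05 in M/M (adjusted p = 3.71e-06). *Cdkn2d*, which reached the filter only through the M/M libraries, was higher there by 0.62 ± 0.09 (adjusted p = 2.59e-05), and *Cdkn2c* was lower by -0.36 ± 0.09 (adjusted p = 0.00237).

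Of 22 p53 target and checkpoint genes, 18 were tested in M/M against wild-type, and 11 were higher and 7 lower (31.4% of all tested genes in each direction). Of the 18, *Phlda3*, *Plk2*, *Plk3* and *Trp53inp1* reached the filter only through the M/M libraries and so had to be higher there before TMM scaling. The smallest p-values belonged to *Phlda3* (3.11 ± 0.13, adjusted p = 3.7e-10), *Plk2* (4.00 ± 0.19, adjusted p = 1.01e-09) and the antiproliferative gene *Btg1* (-1.08 ± 0.06, adjusted p = 9.03e-09). Both directions were thus present in a list in which every tested gene passed. In I/M, 6 of the 18 were higher (17.3% of all tested genes) and 3 lower (15.3%), or 5 and 4 without I/M replicate 3, among them *Phlda3* (1.15 ± 0.14, adjusted p = 3.62e-05) and *Gadd45a* (-0.87 ± 0.08, adjusted p = 3.24e-06). In KO, 1 was higher (2.16% of all tested genes) and 1 lower (2.2%). *Zmat3* was higher (0.58 ± 0.09, adjusted p = 0.00142) and *Gadd45b* was lower (-0.45 ± 0.09, adjusted p = 0.00764).

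At the entry into S phase, *E2f1*, an activating E2F factor, rose from 8.85, 9.27 and 9.55 CPM in wild-type to 13.8, 14.0 and 13.9 in M/M libraries, with 10.5, 9.26 and 10.9 in I/M and 9.78, 9.26 and 9 in KO. The M/M libraries lay apart from all others. The log2 fold change was 0.59 ± 0.07 in M/M (adjusted p = 3.48e-06) and 0.15 ± 0.07 in I/M (adjusted p = 0.106), and M/M exceeded I/M by 0.44 ± 0.06 (adjusted p = 6.6e-05). The wider fit added *Ccne1*, a cyclin that partners *Cdk2*, at 0.81 ± 0.14 (adjusted p = 0.00021), and *Cdk2* itself at 0.71 ± 0.13 (adjusted p = 0.000276), in M/M against wild-type. *Ccne2* did not pass in M/M (0.35 ± 0.15, adjusted p = 0.0551). *Ccne1* was also the member with the lowest KO value relative to wild-type in the wider fit, 1.16 ± 0.225 against 1.64 ± 0.131 CPM, though this did not pass (-0.51 ± 0.16, adjusted p = 0.108).

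Of 18 factors of the RB, E2F and DREAM system, 10 were tested, and in M/M lenses 6 were higher and 2 lower (31.4% of all tested genes in each direction), with a median of 0.26. *Foxm1* reached the filter only through the M/M libraries. *Rbl2*, encoding the pocket protein p130, was higher by 0.46 ± 0.06 (adjusted p = 2.8e-05), *E2f6* by 0.26 ± 0.05 (adjusted p = 0.00103), and the E2F partner *Tfdp1* was lower by -0.27 ± 0.04 (adjusted p = 0.000126). In I/M, 1 of the 10 was higher (17.3%) and 1 lower (15.3%). These were *Rbl2* (0.25 ± 0.06, adjusted p = 0.00956) and *Tfdp1* (-0.17 ± 0.04, adjusted p = 0.0121).

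The replication and mitosis members differ in some promoter motifs. RefSeq promoter windows of GRCm38.p6, from 250 bases before to 50 bases after each transcript start, were found for 34 of the 42 members (37 windows) and were searched on both strands for TTTGAA (the CHR element of MuvB target genes), CCAAT (the box bound by NF-Y) and TTTCGCGC or TTTGGCGC (E2F sites). TTTGAA occurred in 11 of 15 mitosis genes (73.3%), all 11 of which also held CCAAT, against 20.2% of all 27025 genes for TTTGAA and 7.97% for both together. An E2F site occurred in 5 of 11 replication genes (45.5%), against 0.929% of all genes. Across the sets, TTTGAA occurred in 1 of 11 replication genes (9.09%) and an E2F site in 1 of 15 mitosis genes (6.67%). CCAAT was common in both, with 13 of 15 mitosis genes (86.7%) and 8 of 11 replication genes (72.7%), against 41.1% of all genes. Neither TTTGAA nor an E2F site in these exact spellings was found in the 8 genes of G1 cyclins, kinases, inhibitors and S-phase entry that had a window. Other spellings were not searched, so this does not show that E2F sites are absent. The windows of *E2f1*, *Cdk6* and the replication genes *Cdc6* and *Mcm7* lay inside the genes as annotated. The region before the outermost start of these genes was therefore not searched. A match is a description of letters in a window and not proof of binding.

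The 200 bases before the start, 5′ to 3′ on the gene's strand, follow for 3 mitosis members that hold TTTGAA with CCAAT and for 1 licensing member with E2F sites, with the matched letters (or their reverse complements) in capitals. The first is *Cdk1*, chr10:69352913-69353112, minus strand, with 2 TTTGAA, 2 CCAAT and 1 TTTCGCGC match.
Cdk1: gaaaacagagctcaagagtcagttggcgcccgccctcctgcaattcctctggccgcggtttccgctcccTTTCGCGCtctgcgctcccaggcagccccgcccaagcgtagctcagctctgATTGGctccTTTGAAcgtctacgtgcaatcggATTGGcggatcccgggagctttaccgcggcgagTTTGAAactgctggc
*Mki67* (chr7:135716380-135716579, minus strand) has 2 TTTGAA and 3 CCAAT matches.
Mki67: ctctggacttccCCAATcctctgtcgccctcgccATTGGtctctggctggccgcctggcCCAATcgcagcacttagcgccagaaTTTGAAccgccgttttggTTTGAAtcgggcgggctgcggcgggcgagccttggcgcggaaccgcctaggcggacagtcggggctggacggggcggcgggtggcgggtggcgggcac
*Top2a* (chr11:99024190-99024389, minus strand) has 2 TTTGAA and 5 CCAAT matches.
Top2a: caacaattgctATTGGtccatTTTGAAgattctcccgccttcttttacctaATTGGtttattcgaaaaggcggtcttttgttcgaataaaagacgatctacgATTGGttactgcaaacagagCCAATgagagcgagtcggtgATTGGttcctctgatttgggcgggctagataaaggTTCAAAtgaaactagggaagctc
*Mcm6* (chr1:128359706-128359905, minus strand) has 2 CCAAT matches, 2 TTTGGCGC matches and 1 TTTCGCGC match, and the TTTCGCGC match overlaps a TTTGGCGC match in the first run of capitals.
Mcm6: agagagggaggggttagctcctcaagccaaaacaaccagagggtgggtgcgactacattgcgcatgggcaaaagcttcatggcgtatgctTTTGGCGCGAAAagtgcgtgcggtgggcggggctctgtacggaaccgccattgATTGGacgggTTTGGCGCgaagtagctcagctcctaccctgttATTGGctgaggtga

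**Figure D3:**
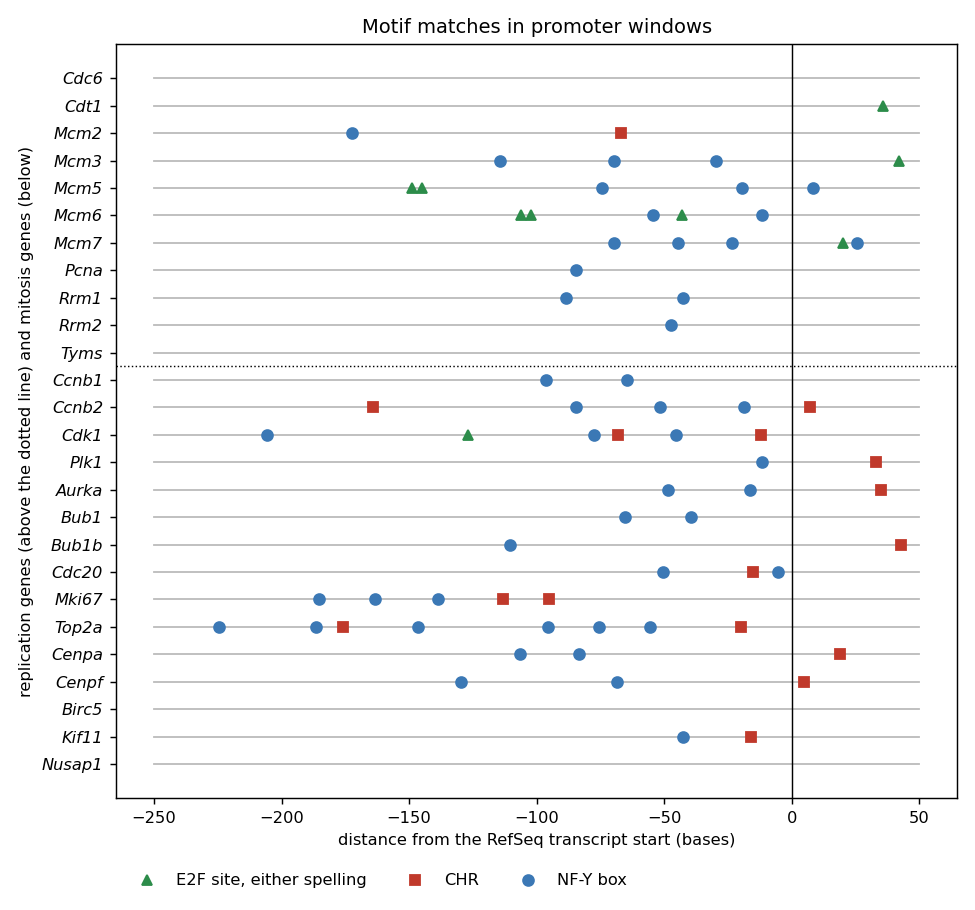
Positions of the matches in the promoter windows of the replication genes (upper rows) and mitosis genes (lower rows) that have one, in bases from the RefSeq transcript start, with squares for CHR, circles for the NF-Y box and triangles for E2F sites. Squares occur in 11 of 15 mitosis genes and triangles in 5 of 11 replication genes; the 2 windows of *Mcm7* share a row.

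The summed CPM of the 12 replication members was 100.6, 96.8 and 96.1 in wild-type, 87.5, 83.7 and 86.2 in KO, 108.2, 88.6 and 98.3 in I/M, and 112.9, 112.7 and 114.1 in M/M libraries. M/M lay above and KO below all wild-type libraries, while I/M spanned them. For the 19 mitosis members the sums were 71.2, 61.3 and 66.8 in wild-type, 63.4, 60.5 and 62.8 in KO, 77.6, 66.5 and 79.3 in I/M, and 92.7, 87.5 and 96.5 in M/M libraries. Again M/M lay apart, but here KO overlapped with wild-type. Within I/M, replicate 2 was the lowest of the 3 libraries for 26 of these 31 genes.

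**Figure D4:**
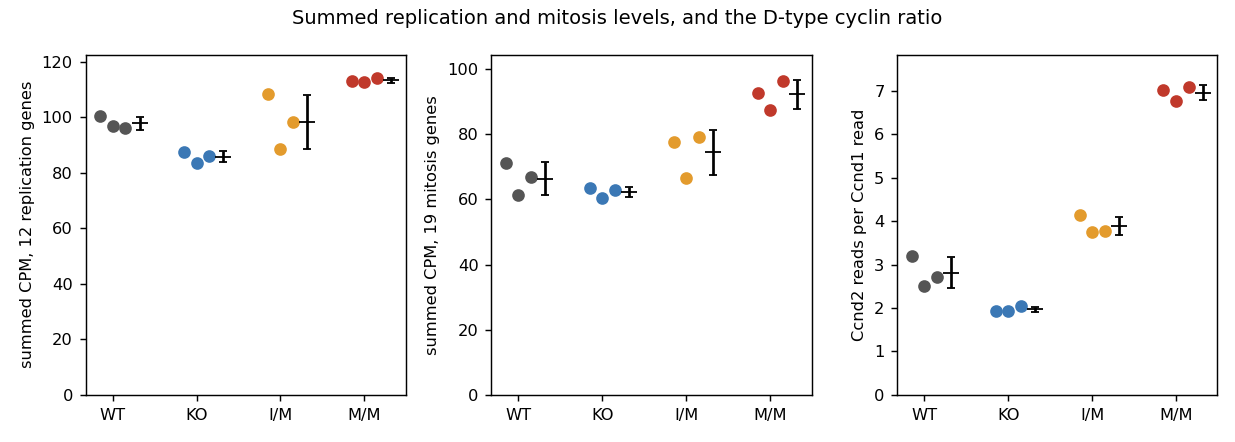
Summed CPM of the 12 replication members, summed CPM of the 19 mitosis members, and *Ccnd2* reads per *Ccnd1* read, with 1 point per library and bars for the mean ± SD (n = 3), on axes that start at 0. The M/M libraries are highest in each panel, and the ratio is 6.96 in M/M against 2.81 in wild-type lenses.

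The Mcm2 to Mcm7 proteins form the helicase that licenses replication origins, and their genes did not change as 1 unit. In M/M against wild-type, *Mcm3* rose by 0.52 ± 0.08 (adjusted p = 9.89e-05), *Mcm4* by 0.38 ± 0.08 (adjusted p = 0.00126) and *Mcm6* by 0.34 ± 0.07 (adjusted p = 0.000756). *Mcm2* (0.04 ± 0.07, adjusted p = 0.631) and *Mcm5* (0.15 ± 0.14, adjusted p = 0.362) did not pass, although with library size alone *Mcm2* did (0.55, adjusted p = 7.89e-06). *Mcm7* was lower in M/M (-0.19 ± 0.06, adjusted p = 0.0129) and I/M (-0.20 ± 0.06, adjusted p = 0.0216), but with library size alone these were 0.32 and 0.00. Without wild-type replicate 1 neither *Mcm7* call held, nor did each hold without replicate 2 or replicate 3 of its own mutant group.

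By library, *Mcm3* held 6.78, 6.39 and 6.38 CPM in wild-type, 5.31, 5.81 and 5.82 in KO, 7.27, 5.71 and 6.54 in I/M and 9.24, 9.15 and 9.68 in M/M lenses. *Mcm2* held 23.0, 23.6 and 20.9 CPM in wild-type, 18.4, 17.8 and 18.5 in KO, 24.6, 19.7 and 21.0 in I/M and 24.4, 23.1 and 22.1 in M/M lenses. *Mcm3* was thus highest in M/M, where *Mcm2* overlapped with wild-type, and both were lower in every KO library than in any wild-type library. The KO difference of *Mcm3* did not pass (-0.21 ± 0.09, adjusted p = 0.229). *Mcm2* in KO was lower by -0.31 ± 0.08 (adjusted p = 0.0395), a call lost in 6 of 12 fits with 1 library left out and with library size alone (-0.26, adjusted p = 0.0849). The remaining licensing genes were low: *Cdt1* held 2.57 ± 0.141 CPM in wild-type and 3.20 ± 0.423 in M/M lenses (0.29 ± 0.14 in the wider fit, adjusted p = 0.0942), and *Cdc6*, the 1 member in neither fit, held 0.703 ± 0.158 and 0.682 ± 0.176 CPM.

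Genes of nucleotide supply and of the replication fork rose in M/M except for *Rrm1*. *Rrm2*, the cell cycle regulated subunit of ribonucleotide reductase, was at 4.13, 4.05 and 4.50 CPM in wild-type and 7.39, 6.89 and 7.17 in M/M libraries (0.76 ± 0.12, adjusted p = 0.000127). Its partner *Rrm1*, the large subunit, differed by -0.01 ± 0.07 (adjusted p = 0.903), with 15 ± 1.08 and 14.9 ± 0.498 CPM. *Pcna*, the sliding clamp of the fork, was at 12.9, 11.9 and 12.3 CPM in wild-type and 15.7, 17.3 and 17.1 in M/M libraries (0.43 ± 0.09, adjusted p = 0.000906). *Tyms*, thymidylate synthase, was higher by 0.50 ± 0.12 in the wider fit (adjusted p = 0.00223). None of these 4 genes passed in I/M or KO by edgeR, and none had an unadjusted p under 0.05 there.

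Of 35 other replication genes, 17 were tested in M/M against wild-type, with 6 higher, 3 lower (31.4% of all tested genes in each direction) and a median of 0.12. In the wider fit 8 of 32 were higher (30% of all tested genes) and 3 lower (30.6%), with a median of 0.11 against 0.40 over the members. The shares that were higher, 35.3% and 25%, were near those of all tested genes. At the higher filter *Chaf1a*, *Pola1* and *Slbp* passed only through the M/M libraries. *Lig1*, the ligase of lagging-strand synthesis, rose by 0.72 ± 0.07 (adjusted p = 5.11e-07) and *Rfc2*, of the clamp loader, by 0.23 ± 0.06 (adjusted p = 0.0028), and *Rpa1*, of the single-strand binding complex, was lower by -0.23 ± 0.05 (adjusted p = 0.00118).

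Mitosis members were scarce in the lens, at 0.256 to 1.38 CPM per kb of exon in wild-type lenses, and 5 of the 19 reached the higher filter, *Ccna2* and *Kif11* through the M/M libraries alone. All 5 were higher in M/M (31.4% of all tested genes). *Mki67*, the proliferation marker that coats mitotic chromosomes, was at 14.8, 12.4 and 14.3 CPM in wild-type, 12, 12.9 and 12.9 in KO, 14.1, 15.2 and 17.8 in I/M, and 20.7, 18.6 and 22.9 in M/M libraries. *Top2a*, the topoisomerase that untangles chromosomes, was at 11.3, 8.53 and 10.6 in wild-type, 9.08, 10.4 and 10.7 in KO, 12.5, 9.93 and 13.1 in I/M, and 14.7, 14.4 and 15.6 in M/M libraries. For both genes the M/M libraries lay above all other libraries. For *Top2a* the other 3 genotypes overlapped, while for *Mki67* wild-type overlapped with both KO and I/M, and every I/M library lay above every KO library. The log2 fold change in M/M was 0.58 ± 0.10 for *Mki67* (adjusted p = 0.000143) and 0.55 ± 0.11 for *Top2a* (adjusted p = 0.000839), with 0.18 ± 0.10 and 0.22 ± 0.11 in I/M (adjusted p = 0.189 and 0.172).

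The other 3 were *Cenpf*, a kinetochore protein (0.45 ± 0.11, adjusted p = 0.00271), *Ccna2*, the cyclin of S phase and G2 (0.44 ± 0.10, adjusted p = 0.00222), and *Kif11*, the motor that separates spindle poles (0.34 ± 0.13, adjusted p = 0.0358). The *Kif11* call was lost without wild-type replicate 2 or replicate 3.

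In the wider fit, 15 of the 19 mitosis members were higher in M/M (30% of all tested genes) and the other 4 did not pass. *Cdk1*, the kinase of mitotic entry, had 2.44, 2.77 and 2.72 CPM in wild-type, 2.84, 2.41 and 2.31 in KO, 3.77, 2.67 and 3.56 in I/M, and 4.18, 3.76 and 4.13 in M/M libraries (0.58 ± 0.13 in M/M, adjusted p = 0.00158). Its partner *Ccnb1* was higher by 0.56 ± 0.12 (adjusted p = 0.000804), while *Ccnb2* did not pass (0.40 ± 0.17, adjusted p = 0.0612). *Plk1*, a kinase of spindle assembly, was the 1 mitosis member called in both mutants, at 0.53 ± 0.13 in M/M (adjusted p = 0.00295) and 0.51 ± 0.13 in I/M (adjusted p = 0.00995).

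Neither Aurora kinase passed in M/M, although for *Aurkb* every M/M library lay above every wild-type library. *Aurka*, at the spindle poles, was -0.12 ± 0.14 in M/M (adjusted p = 0.467), with 2.29 ± 0.148 CPM in wild-type and 2.14 ± 0.105 in M/M lenses. *Aurkb*, of the chromosomal passenger complex, was 0.27 ± 0.14 (adjusted p = 0.106), while its partner *Birc5* (survivin) was called at 0.36 ± 0.14 (adjusted p = 0.0408). *Aurka* was thus the 1 mitosis member with a mean in M/M below wild-type.

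Of the spindle checkpoint genes, *Bub1* (0.55 ± 0.19, adjusted p = 0.0223) and *Bub1b* (0.33 ± 0.12, adjusted p = 0.0272) were higher in M/M, and *Cdc20*, which activates the anaphase-promoting complex, was not called (0.23 ± 0.13, adjusted p = 0.142). The centromeric histone *Cenpa* rose by 0.62 ± 0.15 (adjusted p = 0.00264). Of the spindle and cytokinesis genes, *Kif20a* rose by 0.40 ± 0.12 (adjusted p = 0.00923), *Tpx2* by 0.43 ± 0.16 (adjusted p = 0.0328) and *Nusap1* by 0.34 ± 0.12 (adjusted p = 0.0203). All these values come from the wider fit, as do those of the Aurora kinases and *Birc5*.

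Of 41 other mitosis genes, 9 were tested at the higher filter, with 5 higher (31.4% of all tested genes) and 0 lower (31.4%) in M/M, and 39 in the wider fit, with 22 higher (30%), 3 lower (30.6%) and a median of 0.40. *Cks1b*, *Incenp*, *Prc1* and *Pttg1* reached the higher filter, and 6 of the 39 the lower one, only through the M/M libraries. Of the 9, *Racgap1*, needed for the contractile ring, had the smallest p and rose by 1.31 ± 0.09 in M/M (adjusted p = 5.18e-08) and 0.55 ± 0.09 in I/M (adjusted p = 0.000595). The condensin subunits *Smc4* (0.57 ± 0.07, adjusted p = 9.35e-06) and *Smc2* (0.37 ± 0.09, adjusted p = 0.00231) followed in M/M.

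**Figure D5:**
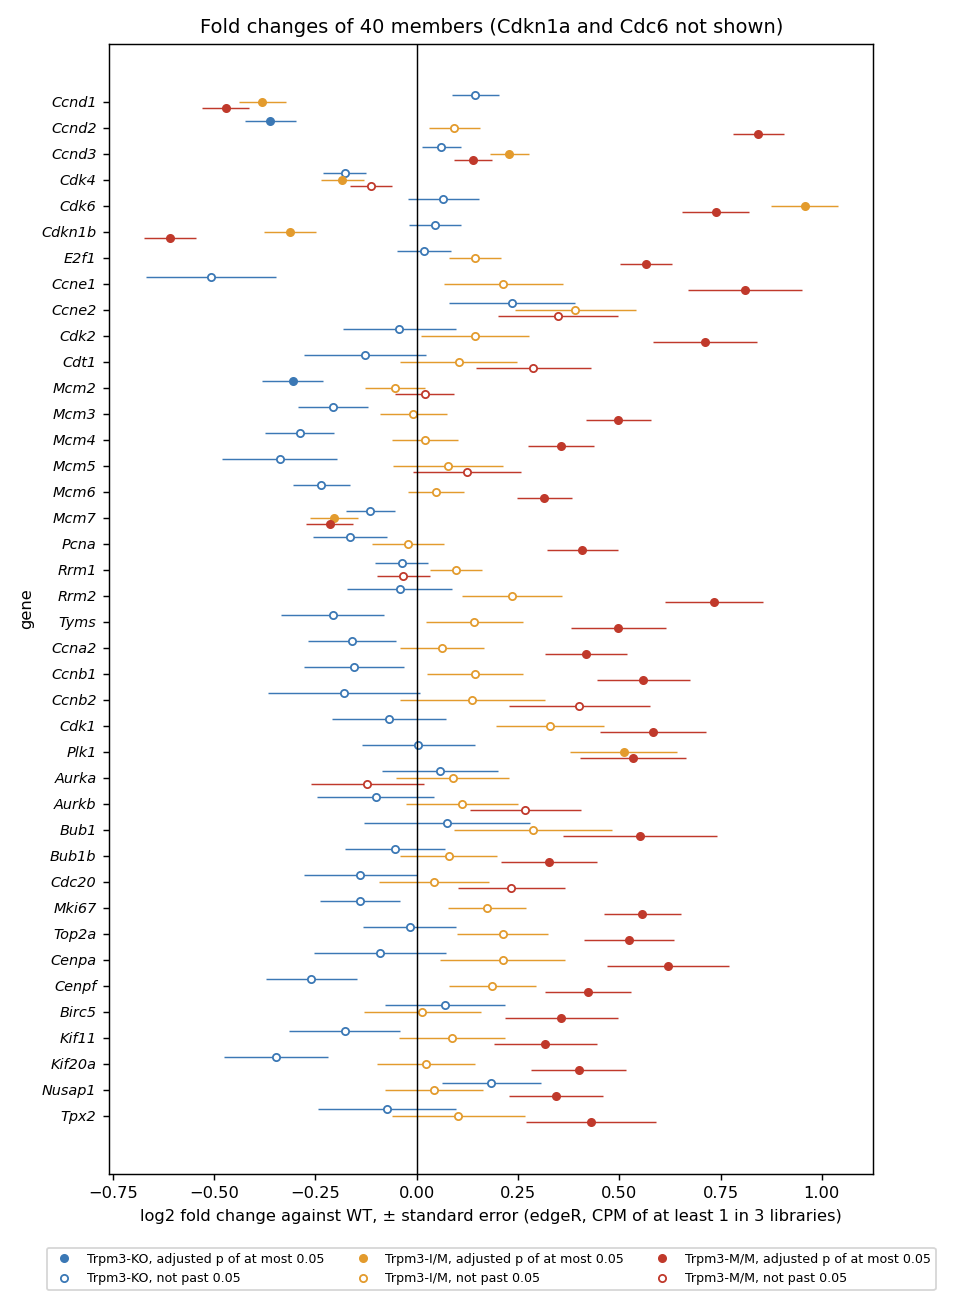
Log2 fold changes against wild-type (± SE) of 40 members in the wider fit, for KO, I/M and M/M lenses, with filled points at an adjusted p of at most 0.05. Filled M/M points sit to the right of 0 except for *Ccnd1*, *Cdkn1b* and *Mcm7*; *Cdkn1a*, at 6.49 in M/M, is not drawn.

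In *Trpm3*-I/M against wild-type lenses, 3 of the 22 members at the higher filter were higher (17.3% of all tested genes), namely *Ccnd3*, *Cdk6* and *Cdkn1a*, and 4 were lower (15.3%), namely *Ccnd1*, *Cdk4*, *Cdkn1b* and *Mcm7*. *Cdkn1a* alone passed the fold change of 2 (3.33% of all tested genes). Both counts of members higher and lower were near the shares of all tested genes. All the members called here but *Mcm7* are G1 cyclins, their kinases or inhibitors. In the wider fit 4 were higher (15.5%), with *Plk1* added, and 4 lower (13.9%), and the member median was 0.10 against -0.01 over all genes. Without I/M replicate 3, the library with little *Xist*, 3 members were higher and 2 lower, *Cdk4* and *Mcm7* no longer passing, and 2 passed the fold change of 2, as *Cdk6* moved to 1.01. Without I/M replicate 2, 6 members were higher and 2 lower.

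M/M was also compared with I/M directly. At the higher filter 11 of 22 members were higher in M/M (25.6% of all tested genes) and 2 were lower (25.7%), and *Cdkn1a* alone passed the fold change of 2 (4.7%). Among the 11, *Cdkn1a*, *Rrm2* and *Ccna2* would not have reached that filter without the M/M libraries, so for them the filter favored M/M. In the wider fit the counts were 19 of 41 higher (24.9%) and 2 lower (23.9%), with a median of 0.27 against 0.00. *Mki67* (0.40 ± 0.09, adjusted p = 0.00272), *Pcna* (0.45 ± 0.09, adjusted p = 0.000832), *Mcm3* (0.53 ± 0.08, adjusted p = 0.000121) and *Rrm2* (0.52 ± 0.12, adjusted p = 0.00248) were among those higher. *Top2a* was too (0.33 ± 0.11, adjusted p = 0.0207), but not without I/M replicate 2 or M/M replicate 3. *Cdk1* (0.25 ± 0.12, wider fit, adjusted p = 0.106) and *Kif11* (0.25 ± 0.13, adjusted p = 0.115) did not pass. Without I/M replicate 3 the counts at the higher filter were again 11 higher and 2 lower.

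In *Trpm3*-KO against wild-type lenses, edgeR called 0 members higher (2.16% of all tested genes) and 2 lower (2.2%), *Ccnd2* and *Mcm2*, and 0 past a fold change of 2 (0.568%). At an unadjusted p of 0.05, 1 member was higher (*Ccnd1*) and 8 were lower (*Ccnd2*, *Cdk4*, *Cenpf*, *Mcm2*, *Mcm3*, *Mcm4*, *Mcm5* and *Mcm6*), where 8.85% and 9.27% of all tested genes were. DESeq2 called 0 higher (2.91% of all tested genes) and 3 lower (3.26%). In the wider fit edgeR again called 0 higher (2.02%) and 2 lower (2.03%), with 1 and 10 at an unadjusted p of 0.05 (8.27% and 8.78%). The member median was -0.16 at the higher filter and -0.11 in the wider fit, against 0.00 over all genes in both.

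The KO values of the Mcm genes shared a sign. All 6 lay below wild-type in log2 fold change, from -0.34 ± 0.14 for *Mcm5* to -0.11 ± 0.06 for *Mcm7*, but only *Mcm2* passed. In the CPM values, 11 of the 42 members were lower in every KO library than in any wild-type library (11.3% of genes in the wider fit) and 3 were higher in every one (10.7%). All 3 comparisons with wild-type share the same 3 wild-type libraries, so a wild-type library that is high or low moves all of them at once.

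The samples were also scaled by library size alone. This moved the median log2 fold change over all tested genes to 0.50 in M/M, 0.20 in I/M, 0.05 in KO and 0.31 in M/M against I/M, so the rises and falls above are relative to the bulk of genes under TMM scaling. The calls of lower *Ccnd1*, *Mcm7* and *Cdkn1b* in M/M depend on that choice, while *Ccnd1* in I/M was lower with library size alone too (-0.17). Lens epithelium markers, which stand for the cells that divide in a normal lens, were mixed. Of 9 such genes, 4 were higher (30% of all tested genes) and 4 lower (30.6%) in M/M lenses in the wider fit. Their sum was 744.1 to 778.3 CPM in wild-type, 1038 to 1086 in I/M and 724.6 to 840.2 in M/M lenses. A few abundant genes weigh heavily in that sum, so it does not measure the amount of epithelium. *Igfbp5* was at 120.6 ± 2.25 CPM in wild-type, 445 ± 29.0 in I/M and 291.7 ± 55.9 in M/M lenses. *Fgfr3* was at 274.7 ± 4.65, 256.9 ± 14.4 and 187.9 ± 10.5 CPM.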

How the data were processed

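Lens RNA from 12 libraries (4 genotypes, 3 each) was sequenced by the authors, who quantified reads with DRAGEN on the Ensembl mouse assembly (GRCm38). The deposited values are estimated counts for each gene, neither normalized nor pooled over replicates. They also deposited their own edgeR fold changes and p-values, which were not used. Of the deposited counts, 88.4% were whole, and all were rounded. The tests had been chosen for whole counts. Here, edgeR 4.0.16 (TMM factors, quasi-likelihood test, Benjamini–Hochberg over all tested genes, FDR ≤ 0.05) was fitted to all 12 libraries with genotype as the factor, on genes that reached 5 CPM in 3 libraries or more. That filter used CPM before TMM scaling, which favors M/M (TMM factors 1.22 to 1.27, against 0.828 to 0.905 in wild-type); printed CPM values use the factors. Standard errors derive from the fold change and its F statistic. The procedure was tested on simulated data. Estimated counts of genes with near-identical copies are uncertain. With nothing said of separate litters, p-values measure the spread between these libraries.

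The members and lists were chosen with earlier results of these data known. All 42 members are named; tests are given for those passing in a comparison and for a fixed set (*Mki67*, *Top2a*, *Cdk1*, *Pcna*, *Mcm2*, D-type cyclins and inhibitors), and from other lists for at most 3 genes with the smallest p. Values of other members that did not pass, and the use of the wider fit for scarce members, were chosen after their values were seen. Alternatives were other scalings, DESeq2 1.42.0, other filters, the libraries compared alone, a replicate block and each library left out. Gene coordinates are from GENCODE (GRCm38) and promoters from RefSeq (GRCm38.p6).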

Additional observations from a re-analysis of the deposited data

How the results depend on the processing

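The 12 counts of members called and 41 single log2 fold changes were recomputed under each alternative. DESeq2, upper-quartile factors, and TMM without the 16 crystallin genes changed none of the 41 single calls. Library size alone gave, in M/M against wild-type, 0 members lower and 8 past 2-fold; in I/M, 11 higher, 1 lower and 2 past 2-fold; in KO, 1 lower; and in M/M against I/M, 20 higher, 0 lower and 2 past 2-fold. It reversed *Ccnd1* (0.062) and *Mcm7* (0.316) in M/M, *Cdk4* (0.020) and *Mcm7* (0.000) in I/M, and *Cdk6* (0.107) and *Cdkn1b* (0.032) in M/M against I/M. *Mcm2* in M/M then passed (0.553), while *Cdkn1b* in M/M (-0.078) and I/M (-0.110) and *Mcm2* in KO (-0.256) did not. DESeq2 called 3 members lower in KO and 12 higher in M/M against I/M. With no filter, 26 members were higher in M/M, 7 higher and 2 lower in I/M, and 18 higher in M/M against I/M; at CPM of at least 1 the counts were 28 in M/M and 19 in M/M against I/M. These filters tested 42 and 41 members instead of 22. With only the libraries compared, 0 members passed 2-fold in I/M (*Cdkn1a* was not tested there) and 1 was lower in M/M against I/M. Single calls no longer passed for *Ccnd3* in M/M and *Cdk4* and *Mcm7* in I/M with no filter, and for *Mcm7* in I/M and *Cdk6* in M/M against I/M with only the libraries compared.

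The replicate numbers were tested as a block although same-numbered libraries did not deviate together (correlations from -0.264 to 0.149). The block left 1 member lower in M/M against I/M, as *Cdk6* no longer passed (adjusted p = 0.0602), and changed no other single call.

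Leaving out 1 library at a time gave, in M/M against wild-type, 13 to 15 higher, 2 to 3 lower and 0 to 1 past 2-fold (0 without any 1 of the M/M libraries, since *Cdkn1a* then missed the filter). In I/M it gave 2 to 6 higher, 2 to 4 lower and 0 to 2 past 2-fold. The 6 came without I/M replicate 2, and the 2 without any 1 of the M/M libraries, where *Cdkn1a* was not tested. In KO, 1 to 3 were lower, with 1 in the 6 fits that lost *Mcm2*. In M/M against I/M, 9 to 12 were higher, 1 to 2 lower and 0 to 1 past 2-fold. *Mcm2* in M/M ran from -0.010 (without wild-type replicate 3) to 0.098. The cause of these moves was not tested except where a filter is named. Counting error limits *Cdc6* and the wild-type value of *Cdkn1a*, which rests on 5 to 8 reads per library.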
